A study of Homo sapiens with 4 samples.

Results

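The 10 genes described here encode inflammatory chemokines and cytokines: CXCL1, CXCL2, CXCL3, CXCL8, CCL2, IL6, LIF, IL11, IL1A and IL1B. They were taken by symbol from the 23459 genes listed in each count file, whatever their values, and all 10 were found. The files identify them by NCBI Gene numbers, 2919 for CXCL1, 2920 for CXCL2, 2921 for CXCL3, 3576 for CXCL8, 6347 for CCL2, 3569 for IL6, 3976 for LIF, 3589 for IL11, 3552 for IL1A and 3553 for IL1B. RNA-Seq was performed on hTERT RPE-1 cells, a wild type line of retinal pigment epithelium origin kept growing by the telomerase subunit hTERT. All cells were serum starved for 48 h in medium with 0.1% serum and then exposed to 200 μM merbarone, a catalytic inhibitor of type II DNA topoisomerases (TOP2). There were 2 groups, treated for 4 h or for 8 h, with 2 libraries each. Untreated cells were not analysed here, so every difference is between both treatment times and time of exposure cannot be told apart from further time in low serum.

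Chemokines are small secreted proteins that draw leukocytes to a tissue through receptors on those cells. CXCL1, CXCL2, CXCL3 and CXCL8 attract mainly neutrophils through CXCR2, with CXCR1 a further receptor of CXCL8, and CCL2 attracts monocytes through CCR2. IL6, LIF and IL11 belong to the IL-6 family, whose receptors share the signalling subunit IL6ST (gp130) and act through JAK kinases and STAT3. IL1A and IL1B are the agonists of the IL-1 receptor, and IL-1 is a classical inducer of several of the other genes through NF-kB. Most of these mRNAs are short-lived, since AU-rich elements in their tails bind decay factors, and epithelial and fibroblast-like cells are known to make them in response to stress.

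Depth ranged from 8064450 to 10324697 counted reads per library. The test covered the 12559 genes that exceeded 1 CPM (reads scaled by the library total) in 2 or more libraries, and these included all 10 chemokines and cytokines. CXCL2 was above 1 CPM in 3 libraries and each of the other 9 in all 4. Values are counts scaled by TMM, a correction for library size and composition, to a common library of 9586680 reads. The change is the log2 fold change (log2FC) of 8 h over 4 h, given with its standard error (SE), from the quasi-likelihood test of edgeR, and a gene was called at a Benjamini-Hochberg adjusted p below 0.05 over all retained genes together with an absolute log2FC above 1. Over all genes this gave 182 higher and 487 lower at 8 h. With library size alone the split was 125 and 641, at an all-gene median log2FC of −0.11 in place of −0.00. It was 260 and 344 once the dependence of log2FC on abundance had been removed (trend correction). Nothing in the labels says that the libraries of a time came from separate cultures, although the study's methods call them biological replicates. The p-values therefore measure only the spread between these libraries. In this test the variance of each gene is moderated by that of all retained genes. The SE and confidence intervals are thus not the spread of that gene alone. Of 14 markers of retinal pigment epithelium, 7 were retained, with MITF, OTX2, KRT8 and KRT18 at 132 or more reads per library, MERTK at 45 to 84, SERPINF1 at 22 to 30 and PMEL at 7 to 12. The other 7, RPE65, BEST1, RLBP1, TYR, TYRP1, LRAT and TTR, had 0 to 7 reads per library. Of 14 leukocyte markers, 12 did not pass the filter and 6 had no count in any library. The 2 that were retained were CD68 and CSF1R, and the summed normalized count of the list was 569.0 to 580.2 at 4 h against 719.0 to 769.1 at 8 h, mostly from CD68, which non-leukocytes also express. PTPRC had 3 to 8 reads per library, and ITGAM and CD3E had none. The part of such cells in the results was not tested. In bulk RNA, more expressing cells and more RNA per cell cannot be told apart.

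The 10 mRNAs did not all differ in one direction between 4 h and 8 h. CXCL2, CXCL3 and IL6 rose by between 2.94-fold and 4.11-fold, while CXCL1 and CCL2 fell to 0.454 and 0.496 of their 4 h level. IL11 and IL1B were 1.85-fold and 1.78-fold higher at 8 h, below the fold-change threshold, and CXCL8 was 1.29-fold higher. LIF, the most abundant, was at 0.891 of its 4 h level, and neither LIF nor IL1A passed the test, LIF with an adjusted p that depended on the setting. In counts, 3 of the 10 were called higher and 2 lower, 5 in all, where 5.33% of all retained genes were called, 1.45% higher and 3.88% lower. After the trend correction the split was 3 higher and 1 lower, since CXCL1 was lost. Without a fold threshold 8 of the 10 passed, against 38.8% of all genes, 6 higher (19.9% of all genes) and 2 lower (18.8%). The times did not overlap for 9 of the 10 genes, 6 above and 3 below, where 69.7% of all genes did not overlap. The median log2FC of the 10 was 0.60 and that of all genes −0.00. The symbols were chosen with earlier results of these data known, so these counts are a description.

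**Figure D1:**
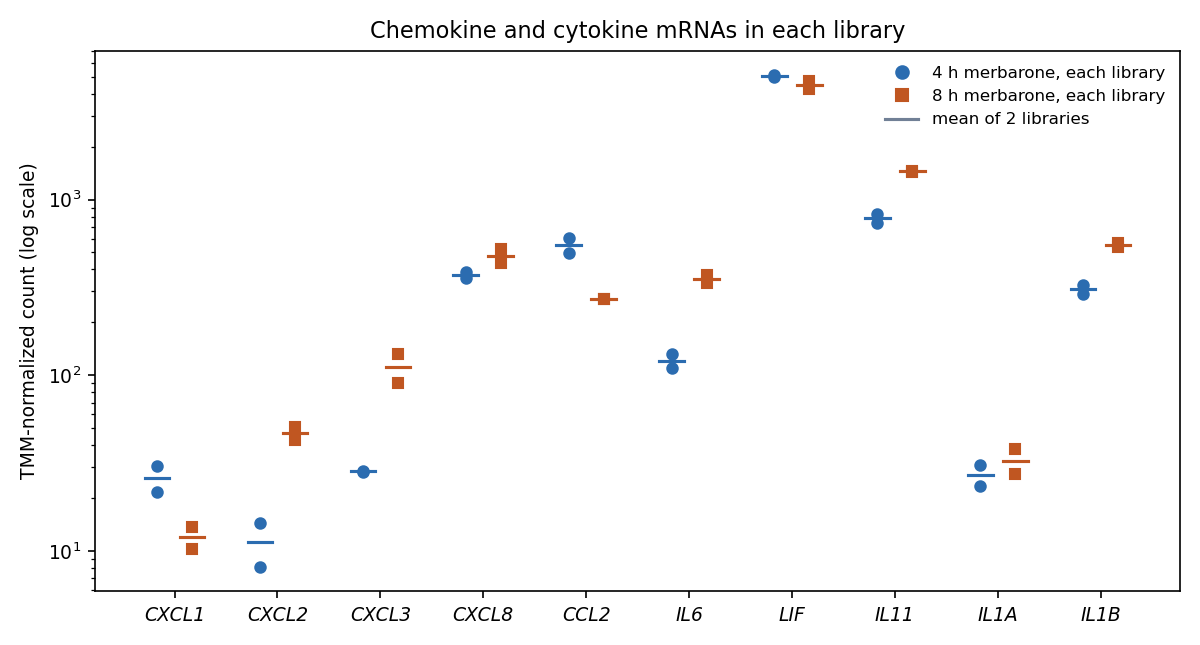
TMM-normalized counts (log axis) of the 10 genes, with circles for the 4 h libraries, squares for the 8 h libraries and lines for the mean of 2 libraries. CXCL2, CXCL3 and IL6 lay higher at 8 h in both libraries, CXCL1 and CCL2 lower, and LIF lay between 4252 and 5091.

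**Figure D2:**
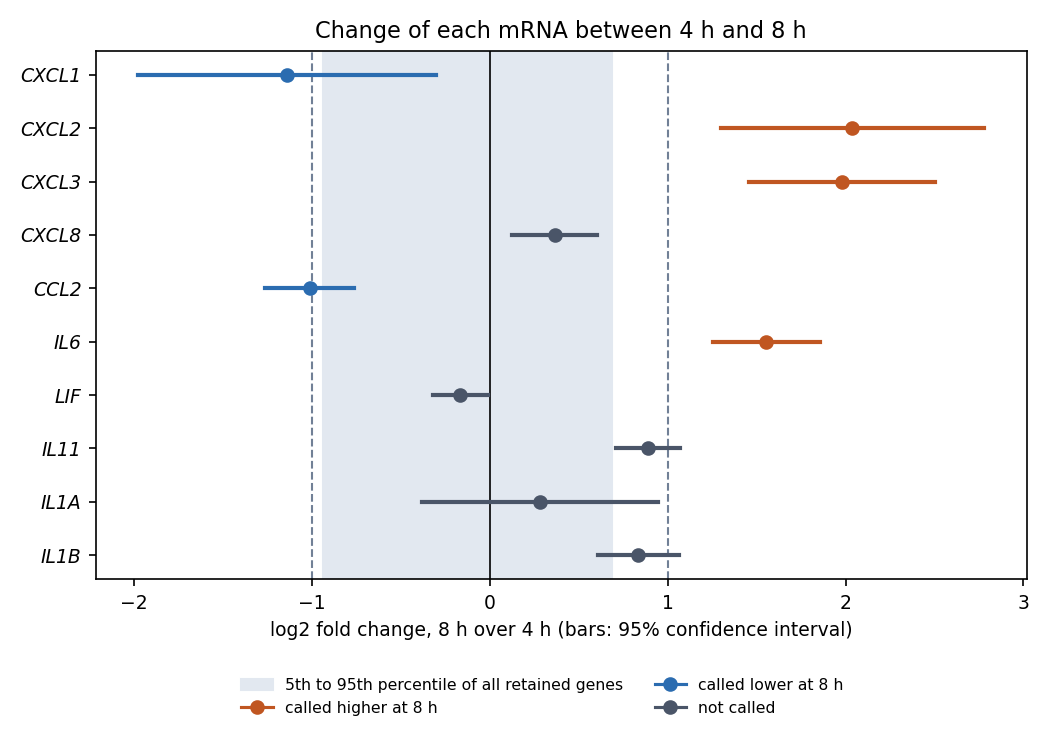
log2FC of 8 h over 4 h with 95% confidence intervals from edgeR, the thresholds of −1 and 1 dashed, and the range from the 5th to the 95th percentile of all retained genes (−0.94 to 0.69) shaded. The intervals of CXCL2, CXCL3 and IL6 lay above 1, those of IL11 and IL1B reached across 1, and those of CXCL1 and CCL2 reached across −1.

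CXCL1, CXCL2 and CXCL3 are the GRO chemokines, 3 close copies of one another in the chemokine cluster of chromosome 4. On hg19 they lie at chr4:74735110-74737025 (plus strand), chr4:74962757-74964912 (minus strand) and chr4:74902306-74904406 (minus strand), each with 4 exons. Their coding sequences were between 90.7% and 94.4% identical by global alignment. CXCL8 lies in the same cluster at chr4:74606286-74609433 (plus strand), and its coding sequence was 53.6% to 55.8% identical to theirs.

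The GRO promoters are shown because genes with nearly the same 110 bases before the start went in opposite directions. The 110 bases before the RefSeq transcription start are given 5′ to 3′ (GRCh38.p14), for CXCL1 at chr4:73869283-73869392 (plus strand), CXCL2 at chr4:74099196-74099305 (minus strand) and CXCL3 at chr4:74038690-74038799 (minus strand). Capitals mark matches to GGNNTTTCC, the letters of a kB site to which NF-kB can bind, searched on both strands.
CXCL1: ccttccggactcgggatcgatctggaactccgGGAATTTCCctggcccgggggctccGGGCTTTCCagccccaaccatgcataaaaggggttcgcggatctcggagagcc
CXCL2: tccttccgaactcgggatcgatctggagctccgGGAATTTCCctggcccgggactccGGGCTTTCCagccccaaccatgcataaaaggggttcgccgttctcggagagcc
CXCL3: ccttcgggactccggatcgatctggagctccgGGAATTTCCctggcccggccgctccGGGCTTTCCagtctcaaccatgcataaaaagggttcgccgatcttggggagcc
These stretches were 93.7% identical between CXCL1 and CXCL2, 90.0% between CXCL1 and CXCL3 and 88.4% between CXCL2 and CXCL3. Each of them held 2 matches, one beginning 78 or 77 bases before the start and one 53 bases before it. The matched letters were the same in the 3 genes.

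CXCL1 had normalized counts of 30.5 and 21.8 in the 4 h libraries, against 10.2 and 13.7 at 8 h. Both 8 h libraries were lower than both at 4 h. The log2FC was −1.14 (SE 0.40, edgeR adjusted p = 0.0299). This rested on 34 and 24 reads at 4 h versus 10 and 11 at 8 h, so that counting alone gives an error of 17.1% to 31.6% per library. The call was not stable. DESeq2 gave an adjusted p of 0.186, the trend correction a log2FC of −0.92, and leaving out replicate 1 at 4 h or at 8 h a log2FC of −0.89 and −0.93, and CXCL1 was called in none of these 4 settings.

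CXCL2 went the opposite way, with 14.4 and 8.16 normalized counts at 4 h versus 43.0 and 50.9 at 8 h. Its log2FC was 2.04 (SE 0.35, edgeR adjusted p = 0.00016), rank 15 of all retained genes in descending order of log2FC. CXCL3 had 28.7 and 28.1 at 4 h versus 131.9 and 90.7 at 8 h, giving a log2FC of 1.98 (SE 0.25, edgeR adjusted p = 5.27e-06) and rank 17. Neither gene had overlapping times, and the 8 h libraries of CXCL3 differed from each other more than those of CXCL2. CXCL2 and CXCL3 met the thresholds in all 12 other settings in which single genes were tested, with log2FC from 1.69 to 2.49 and from 1.67 to 2.21.

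The contrast within the GRO genes can be read inside each library, where scaling plays no part. The ratio of CXCL2 reads to CXCL1 reads was 0.471 and 0.375 at 4 h versus 4.20 and 3.73 at 8 h, 9.37 times higher on average. For CXCL3 over CXCL1 it was 0.941 and 1.29 at 4 h versus 12.9 and 6.64 at 8 h. CXCL1 was thus the GRO gene with the fewest reads at 8 h, whereas at 4 h CXCL2 was. The ratio of CXCL2 to CXCL3 was 0.500 and 0.290 at 4 h versus 0.326 and 0.562 at 8 h, with overlapping times. The 95% confidence interval of log2FC was −1.98 to −0.30 for CXCL1, 1.30 to 2.78 for CXCL2 and 1.46 to 2.50 for CXCL3. With 2 libraries against 2, an exact permutation test of such a ratio cannot give a p below 0.333.

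Close copies matter for the counting, since the authors discarded reads that mapped to more than 1 position. Every window of 75 bases, the read length, inside the exons of each canonical transcript was searched on GRCh37 with up to 2 mismatches. CXCL1 had 689 single-position windows, 78.5% of its 878 exonic windows, CXCL2 had 589 (71.9%) and CXCL3 had 738 (94.7%). Of the CXCL1 windows, 21.5% also matched CXCL2 and none matched CXCL3, while 5.26% of the CXCL3 windows also matched CXCL2. Reads from the shared windows match more than 1 position under this search and would be discarded. These are counts of windows and not of reads, and the part of wrongly placed reads in the CXCL1 and CXCL2 values was not tested. Windows across a splice junction have no position for an ungapped mapper, and 85.8% of the windows of CXCL8 and 71.5% of those of IL1B lay within an exon.

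**Figure D3:**
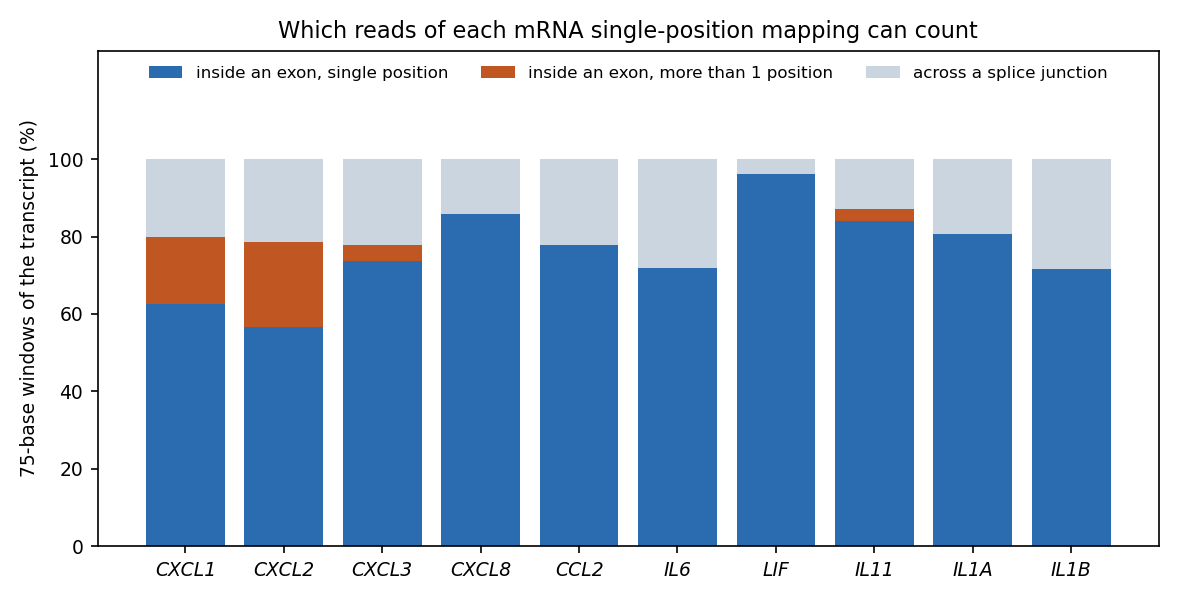
Share of the 75-base windows of each canonical transcript that lie inside an exon with a single genome position, inside an exon with more than 1, or across a splice junction. Countable windows ranged from 56.6% for CXCL2 to 96.1% for LIF, and multiple positions were found for the 3 GRO genes and IL11.

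CXCL8, also called interleukin 8, had 387.7 and 359.0 normalized counts at 4 h versus 523.6 and 434.9 at 8 h. Its 8 h libraries were above both 4 h libraries, but the log2FC of 0.36 (SE 0.11, edgeR adjusted p = 0.0159) was under the fold-change threshold. With 1 library left out in turn it ran from 0.22 to 0.49. The adjusted p of CXCL8 was not below 0.05 in 5 of 12 settings, at 0.0677 with DESeq2, and in edgeR at 0.0787 with library size alone, 0.0587 and 0.149 without replicate 1 or 2 at 4 h and 0.186 without replicate 1 at 8 h. Its 95% confidence interval of 0.13 to 0.60 lay below those of CXCL2 and CXCL3, whose products also bind CXCR2.

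CCL2 (chr17:32582304-32584222, plus strand), also called MCP-1, was the other chemokine called lower. It had 606.6 and 495.9 normalized counts at 4 h versus 273.1 and 273.4 at 8 h. The log2FC was −1.01 (SE 0.12, edgeR adjusted p = 2.23e-06), close to the threshold of −1. It was −0.87 without replicate 1 at 4 h, where the call was lost, and it was called in the other 11 settings. CCL2 had 519 exonic windows, all with a single position, and its counting error was at most 6.74% per library.

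IL6 (chr7:22766819-22771617, plus strand) encodes interleukin 6, an inducer of the acute phase response. Its normalized counts were 109.5 and 131.5 at 4 h versus 335.5 and 374.0 at 8 h. The libraries of the times lay far apart relative to the replicates, giving a log2FC of 1.55 (SE 0.14, edgeR adjusted p = 1.17e-07). It ranked 35 in descending order of log2FC and was called in all 12 settings, with log2FC from 1.42 to 1.69. On GRCh37, IL6 exons share 428 bases with the antisense gene IL6-AS1 and 46 bases with STEAP1B on the opposite strand. STEAP1B had 20 to 40 reads per library. Use of strand in counting is not given in the sources used here, so antisense reads cannot be told apart from those of IL6. Within libraries, the ratio of IL6 reads to CCL2 reads was 0.180 and 0.265 at 4 h versus 1.23 and 1.37 at 8 h.

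IL11 (chr19:55875750-55881831, minus strand), a cytokine linked to fibrosis and platelet production, had 734.1 and 832.2 normalized counts at 4 h versus 1462.5 and 1440.1 at 8 h. Both 8 h libraries were higher. The log2FC of 0.89 (SE 0.09, edgeR adjusted p = 2.1e-07) was below 1, and its 95% confidence interval was 0.71 to 1.07. It ran from 0.78 to 0.98 over the 12 settings and so was never called.

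LIF (chr22:30636442-30642748, minus strand), leukemia inhibitory factor, had 5091 and 4979 normalized counts at 4 h versus 4717 and 4252 at 8 h. Its level was above that of 98.0% of retained genes. The 8 h libraries were below both 4 h libraries, giving a log2FC of −0.17 (SE 0.07, edgeR adjusted p = 0.0815), and the 95% confidence interval was −0.32 to −0.01. The adjusted p of LIF depended on the setting and lay below 0.05 in 4 of 12. It was 0.00663 in edgeR with library size alone, 0.00221 after the trend correction (log2FC −0.32) and 0.0079 without replicate 1 at 8 h, whereas without replicate 2 at 8 h it was 0.362. LIF exons share 86 and 83 bases with the antisense genes LIF-AS1 and LIF-AS2, to which the same limit on strand applies. LIF made up 69.2% and 69.4% of the normalized counts of the 10 genes at 4 h and 58.2% and 56.7% at 8 h, while the sum of the IL-6 family members was 5934 and 5943 at 4 h versus 6515 and 6066 at 8 h. The IL11 to LIF ratio of reads was 0.144 and 0.167 at 4 h versus 0.310 and 0.339 at 8 h. By Euclidean distance of centred log2-CPM over the 4 libraries, the retained genes nearest in course to LIF were MARCHF1 (0.0054), PFN2 (0.0098) and SEPTIN2 (0.017). MARCHF1 had 87 to 145 reads, with a counting error of 8.30% to 10.7% per library. Whether such closeness reflects anything shared with LIF was not tested.

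IL1B (chr2:113587328-113594356, minus strand), whose product is released after cleavage by caspase-1, had 328.4 and 290.1 normalized counts at 4 h versus 563.5 and 539.2 at 8 h. Its log2FC was 0.83 (SE 0.11, edgeR adjusted p = 7.48e-06), with a 95% confidence interval of 0.61 to 1.06. Like IL11, it was higher in both 8 h libraries and under the fold-change threshold in all 12 settings. IL1A (chr2:113531502-113542070, minus strand), its neighbour on chromosome 2, encodes the form that is active without cleavage. It had 23.3 and 30.8 at 4 h versus 37.8 and 27.3 at 8 h, and it was the one of the 10 genes whose times overlapped. Its log2FC was 0.28 with a 95% confidence interval of −0.38 to 0.95 (edgeR adjusted p = 0.507), an interval that reached to nearly 1 at 22 to 37 reads per library.

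**Figure D4:**
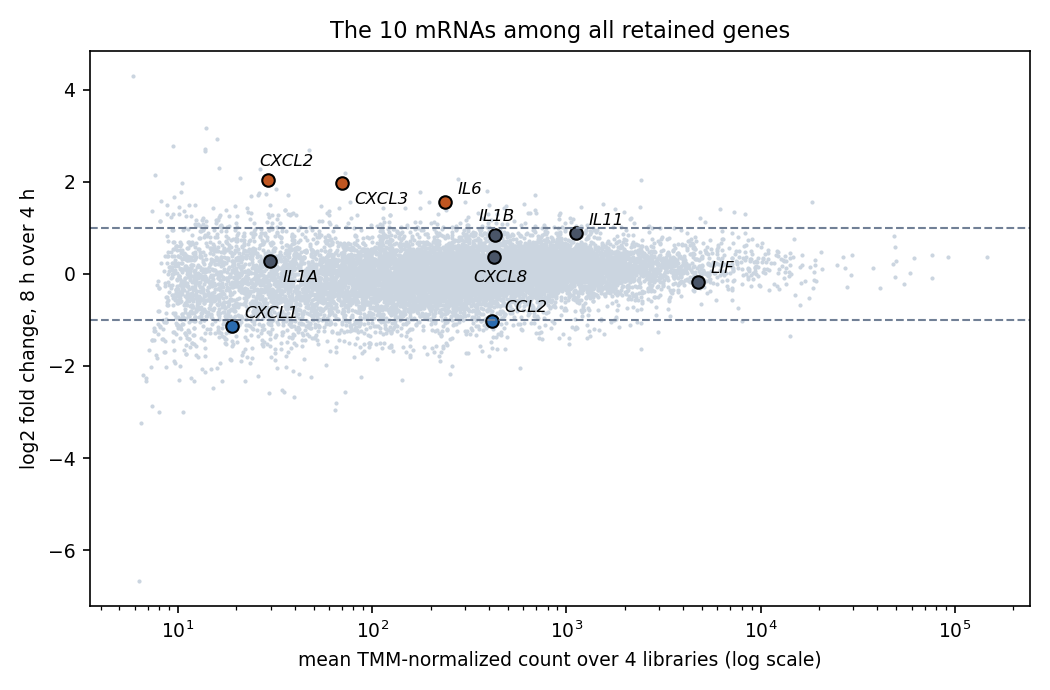
log2FC of 8 h over 4 h against the mean TMM-normalized count (log axis) for the 12559 retained genes in grey, with the 10 genes marked and coloured orange (called higher), blue (called lower) or dark grey (not called). CXCL1, CXCL2, CXCL3 and IL1A lay at the low end, where the spread of all genes was widest, and LIF and IL11 at the high end.

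The low counts of some genes bear on how their calls are read. CXCL1, CXCL2, CXCL3 and IL1A fell in the lowest quintile of retained genes by mean normalized count, in which 12.9% of genes were called, 77 higher and 247 lower. IL6 fell in the middle quintile, with 3.42% called, CCL2, CXCL8 and IL1B in the fourth, with 2.15%, and IL11 and LIF in the highest, with 2.39%. CXCL2 and CXCL3 were thus called in the rarer direction of their abundance class, and CXCL1 in the more frequent one.

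Levels of different genes were compared per 1000 single-position windows, which allows for transcript length and for unmappable stretches. At 4 h the order was LIF (1380), CCL2 (1062), IL11 (404.7), IL1B (301.7), CXCL8 (277.4), IL6 (159.1), CXCL3 (38.5), CXCL1 (37.9), CXCL2 (19.1) and IL1A (17.3), as means of normalized counts per 1000 windows. At 4 h, neighbours whose libraries overlapped were IL1B and CXCL8, CXCL3 and CXCL1, and CXCL2 and IL1A. At 8 h the order was LIF (1229), IL11 (750.0), IL1B (537.9), CCL2 (526.4), IL6 (468.6), CXCL8 (356.1), CXCL3 (150.8), CXCL2 (79.7), IL1A (20.8) and CXCL1 (17.3). IL1B and CCL2 overlapped there, as did IL1A and CXCL1. On this scale IL6 lay below CXCL8 at 4 h and above it at 8 h. In normalized counts with no allowance for length, CXCL8 had the higher mean at 8 h, 479.3 against 354.7. Per 1000 transcript bases the 8 h means were 314.8 for IL6 and 291.9 for CXCL8. Per 1000 windows CCL2 lay above IL11 at 4 h and below it at 8 h. Its order against IL1B at 8 h depended on the scale, since per 1000 transcript bases CCL2 was at 368.7 and IL1B at 365.9.

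Upstream sequences were compared with those of the other genes in RefSeq, whose table matched 8 of the 10 genes. LIF and CCL2 had no entry and were not searched. CXCL8 and IL6 are shown as the genes outside the GRO group that hold the kB letters, and IL11, with the AP-1 letters, as the most abundant of the 8. The 110 bases before the start are given 5′ to 3′ (GRCh38.p14), for CXCL8 at chr4:73740459-73740568 (plus strand), IL6 at chr7:22727090-22727199 (plus strand) and IL11 at chr19:55370464-55370573 (minus strand). Capitals mark GGNNTTTCC, as above, or the AP-1 letters TGANTCA.
CXCL8: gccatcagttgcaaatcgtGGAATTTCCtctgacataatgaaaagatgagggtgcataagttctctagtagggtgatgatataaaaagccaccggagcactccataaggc
IL6: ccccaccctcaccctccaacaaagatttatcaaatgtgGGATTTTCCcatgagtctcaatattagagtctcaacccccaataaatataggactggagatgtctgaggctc
IL11: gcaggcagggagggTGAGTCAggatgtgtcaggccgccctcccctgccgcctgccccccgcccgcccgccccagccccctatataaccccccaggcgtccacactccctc
In the 250 bases before the start, GGNNTTTCC was found in 5 of the 8 genes (CXCL1, CXCL2, CXCL3, CXCL8 and IL6) and in 5.48% of the 27305 promoters in the table. TGANTCA was found in 3 (CXCL8, IL11 and IL1A), against 6.60% of promoters, and the C/EBP letters TTGCNNAA in 3 (CXCL2, IL1B and IL6), against 9.13%. The 5 genes with the kB letters included 3 called higher, 1 called lower and CXCL8, and these letters were shared by genes of both directions. The 1 called lower was CXCL1, whose call was not stable, and CCL2, the other gene called lower, was not searched. A match of letters is not evidence of binding.

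The tails of these mRNAs were searched for AU-rich letters in the 3′ UTR of the GENCODE canonical transcripts. The pentamer ATTTA was present in all 10, from 1 in CCL2 to 10 in CXCL2, and in 68.7% of 19072 canonical 3′ UTRs. In 3′ UTRs of 0.8 to 1.25 times the length, 0.091% had at least as many as CXCL2, 0.965% as many as IL6 and 42.8% as many as CCL2. The longer TTATTTATT, a form preferred by the decay factor ZFP36 (tristetraprolin), was present in 7 of the 10, against 8.57% of all 3′ UTRs. It occurred 6 times in IL11, 5 times in CXCL2 and 3 times in CXCL1, and it was not found in CCL2, IL6 or IL1A. In 3′ UTRs of similar length to each of the 10 genes, between 2.25% and 14.2% held it. Genes that rose (CXCL2, CXCL3) and a gene that fell (CXCL1) both held it.

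Other chemokines and the receptors of these ligands were mostly below the filter. Of 22 other chemokine genes, 13 had no count in any library, among them CXCL5, CXCL10, CCL5 and CCL7. The filter retained 2, of which 1 was called, where 5.33% of all genes were called and 1.45% called higher. CCL3, a CC chemokine that attracts monocytes, was called higher, with 11.7 and 13.6 normalized counts at 4 h versus 31.7 and 22.4 at 8 h (log2FC 1.11, SE 0.38, edgeR adjusted p = 0.0273). It rests on 13 to 31 reads, has near-identical copies in the genome, and lost the call in DESeq2 and without replicate 1 at 4 h, replicate 2 at 4 h or replicate 1 at 8 h. Of 13 chemokine receptors, 8 had no count, including CXCR1, CXCR2 and CCR2. The receptor list had 1 retained gene, ACKR3, an atypical receptor that clears CXCL12. ACKR3 had 665.9 and 687.2 normalized counts at 4 h versus 432.6 and 441.1 at 8 h (log2FC −0.63, SE 0.10, edgeR adjusted p = 4.75e-05, not called). A count of 0 allows up to 3 reads per library, counting error only, so such genes were not detectable at this depth.

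The receptor side of the IL-6 family was present. Of 21 genes listed, 17 were retained, 1 was called and the median log2FC was 0.25. The called gene was IL6R, the ligand-binding receptor of IL6, with 26.9 and 39.0 normalized counts at 4 h versus 61.4 and 85.7 at 8 h. Its log2FC was 1.14 (SE 0.27, edgeR adjusted p = 0.00226), and the call was lost without replicate 1 at 4 h or replicate 2 at 8 h. IL6ST, the shared subunit, had a log2FC of 0.48 and LIFR of 0.37, both below the fold threshold. IL11RA had a log2FC of −0.57 (edgeR adjusted p = 0.126). SOCS3, the feedback inhibitor that STAT3 induces, had 415.0 ± 31.0 at 4 h and 315.3 ± 33.7 at 8 h (SD, n = 2 each), with a log2FC of −0.40. In this list 8 of 17 genes were higher and 2 lower at the adjusted p alone, against 19.9% and 18.8% of all genes, and the 1 call of 17 stands beside 5.33% of all genes.

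On the IL-1 side, 17 of 28 genes were retained, with a median log2FC of 0.16 and 1 call. This stands beside 5.33% of all genes called, with 3.88% of all genes called lower. IRAK3, an inhibitor of IL-1 and Toll-like receptor signalling, was called lower on 25 reads at 4 h and 4 at 8 h, a ratio of 0.199 with a counting interval of 0.0503 to 0.576 (95%, exact conditional). It was not called by DESeq2, was removed by a CPM threshold of 2, and was not called without replicate 1 at 4 h, replicate 2 at 4 h or replicate 1 at 8 h. IL1R1, the signalling receptor, had a log2FC of −0.28 (edgeR adjusted p = 0.332), and IL1RAP, its partner subunit, of 0.60. IL1RN, the receptor antagonist, had 9 and 9 reads at 4 h and 18 and 13 at 8 h. Its log2FC was 1.09 (SE 0.45, edgeR adjusted p = 0.0642) and it was not called. After the trend correction IL1RN was called, at a log2FC of 1.33 (edgeR adjusted p = 0.0268).

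**Figure D5:**
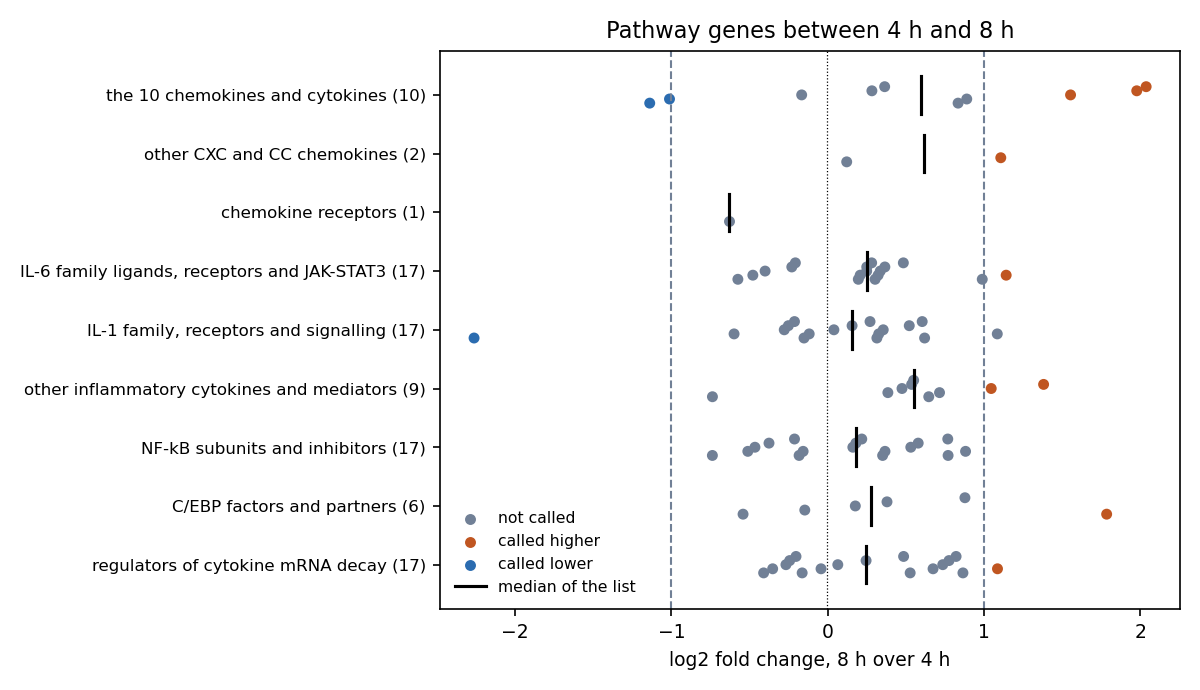
log2FC of 8 h over 4 h for each retained gene of the pathway lists (number of genes in parentheses), coloured by call, with black bars at the list median and dashed lines at −1 and 1. The 10 chemokines and cytokines spread from −1.14 to 2.04, and the 17 NF-kB genes from −0.74 to 0.88.

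Among 26 other inflammatory mediators 9 were retained, 2 were called, both higher, and the median log2FC was 0.55. Over all retained genes 5.33% were called, with 1.45% called higher. GDF15, a stress cytokine of the TGF-beta family, rose from 132.1 ± 17.5 to 345.3 ± 28.3 (SD, n = 2 each; log2FC 1.38) and was called in all 12 settings. IL12A, which encodes a subunit of interleukin 12, rose from 176.2 ± 32.5 to 363.8 ± 20.7 (SD, n = 2 each; log2FC 1.05), a call lost with library size alone and without replicate 2 at 4 h or replicate 1 at 8 h. TNF, a classical activator of NF-kB, had no count in any library.

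None of the 17 retained NF-kB genes was called by edgeR, limma-voom or DESeq2, where edgeR called 5.33% of all genes. In edgeR 10 of them had an unadjusted p below 0.05. That cut is looser than an adjusted p below 0.05, which 38.8% of all genes passed in either direction. RELB and NFKB2, subunits of the non-canonical arm, had a log2FC of 0.88 and 0.77. The other subunits were also above 0, NFKB1 at 0.53, REL at 0.37 (edgeR adjusted p = 0.315) and RELA at 0.22. NFKBIA, which encodes the inhibitor IkB-alpha and is itself an NF-kB target, had 1286 and 1170 normalized counts at 4 h versus 724.1 and 749.2 at 8 h (log2FC −0.74, SE 0.09, edgeR adjusted p = 2.42e-06). At the adjusted p alone, 7 of the 17 were higher and 3 lower, against 19.9% and 18.8% of all genes.

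Of 8 C/EBP genes and partners, 6 were retained and 1 was called, where 5.33% of all genes were called. CEBPD, a transcription factor of the acute phase response, rose from 70.0 and 86.1 normalized counts at 4 h to 179.0 and 366.5 at 8 h (log2FC 1.79, SE 0.25, edgeR adjusted p = 1.53e-05). The 8 h libraries were far apart, and without replicate 2 at 8 h the log2FC was 1.20, still called, and without replicate 1 it was 2.23. Among 17 regulators of cytokine mRNA decay, all retained, 1 was called, against 5.33% of all genes, and the median log2FC was 0.25. ZFP36 rose from 297.5 ± 34.9 to 633.5 ± 60.0 (SD, n = 2 each; log2FC 1.09), and the call was lost with library size alone and without replicate 2 at 4 h or replicate 2 at 8 h. Its relative ZFP36L1 had a log2FC of 0.74, and HNRNPD, which encodes the AU-rich binding protein AUF1, of −0.35.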

How the data were processed

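Raw counts per gene were deposited by the authors for each of 4 libraries, 2 at 4 h and 2 at 8 h of 200 μM merbarone. Stranded libraries from polyadenylated RNA gave single reads of 75 bases, which the authors mapped to hg19 with Bowtie 1.2.0, keeping reads with 1 position. The gene annotation, the counting tool and the use of strand are not given in the sources used here. Depth was 8064450 to 10324697 counts per library.

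Symbols came from RefSeq (23308 of 23459 identifiers) and gene models from GENCODE on GRCh37, the assembly of hg19. Genes exceeding 1 CPM in 2 or more libraries were tested with the quasi-likelihood test of edgeR 4.0.16 (R 4.3.3) after TMM, with time as the only term. The standard error is the size of the log2FC divided by the square root of F. Alternatives were limma-voom (limma 3.58.1), DESeq2 1.42.0, other scalings, filters and thresholds, a trend correction, a block for replicate number, and omission of each library in turn. The tests were checked on simulated counts. The chemokines, cytokines and pathway lists were chosen with earlier results of these data known. All 10 genes are named. From each list its called genes are named, at most 4, with up to 3 uncalled ones on which the 10 genes act, and the 3 genes nearest in course to the most abundant of the 10. SOCS3, ZFP36L1, HNRNPD, ACKR3, NFKB1, REL, RELA, TNF and the genes named as having no count were added after their values were seen.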

Additional observations from a re-analysis of the deposited data

How the results depend on the processing

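The direction of all 10 genes was the same as in the main test in each of the 12 settings tried per gene, 120 values in all, and 115 kept their side of the thresholds. The other 5 were 4 for CXCL1 and 1 for CCL2, given above. Of the 10 genes, 8 passed at an adjusted p below 0.05 with no fold threshold, in place of 5, and 2 (CXCL3 and IL6) with glmTreat, which tests for a change beyond a log2FC of 1. Of 86 retained genes in the pathway lists, 52 passed without the fold threshold and none (0) with glmTreat of edgeR, in place of 7. In glmTreat 3 of them had an unadjusted p below 0.05, a cut for which no all-gene share is given. DESeq2 called 5 of the 86 and 507 of all 12559 retained genes. Over all genes the numbers were 4867 (38.8%) without the fold threshold and 84 with glmTreat, in place of 669 (5.33%). With 1 library left out, which leaves a time with a lone library that is assumed to vary like the others, the calls ranged from 3 to 5 among the 10 genes (3 without replicate 1 at 4 h) and from 3 to 5 in the pathway lists (3 without replicate 2 at 4 h, 4 without replicate 1 at 8 h). With the replicate number as a block, 5 of the 10 genes and 7 genes of the lists were called, and 691 of all genes, and the adjusted p of LIF was 0.0435. The deviations of same-numbered libraries had a correlation of 0.05, and no label says that they share a culture, so the numbers were not taken as pairs. Depth limits CXCL1, CXCL2 and IL1A most, with 9 to 42 reads per library.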
